A study of Mus musculus with 8 samples.

Results

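Mouse chromosome 11 carried more replicated remodeler hotspots per Mb than any other autosome in 3134 mammary epithelial cells, and for that reason it is described here in full. Hotspots, the intervals that the authors list as enriched for sequence tags, were taken from all 6 lists of the series and merged where they overlapped by at least 1 bp. This gave 24342 regions on chromosome 11 out of 532751 regions in all, with 486185 on the other 18 autosomes. A region was assigned to a remodeler when it held a hotspot from both libraries of that antibody. The 6 libraries were chromatin immunoprecipitations with a monoclonal antibody to Brg1, an antibody to CHD4 and an antibody to Snf2h, with 2 libraries each, all from untreated cells of 1 established line. The labels also name 2 DNA inputs, which were not analysed here, and they do not say whether replicates came from separate cultures. Other protocol text in the labels describes induced dominant-negative lines and DNase I digestion, which are not assigned to any of these libraries. Chromosome 11 was chosen on its density in these lists. Every value that sets it against the other autosomes is therefore a description, with no test.

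SWI/SNF complexes are driven by the ATPase Brg1, NuRD by CHD4 and ISWI complexes by Snf2h. All of them use ATP to slide, evict or space nucleosomes, at promoters and distal regulatory elements alike. NuRD also carries histone deacetylases, and ISWI complexes are best known for regular nucleosome spacing. In the RefSeq table for the later build GRCm38.p6, chromosome 11 holds the tumour suppressor genes Trp53 and Brca1, the Hoxb cluster of patterning genes, the type I keratin genes Krt14 and Krt19 of epithelial cells, and Stat5a and Stat5b, which act in mammary differentiation. It also holds Smarce1 and Smarcd2, which encode SWI/SNF subunits, and Chd3, a paralogue of Chd4. The hotspots are on mm9, a different build, so no gene was matched to a hotspot and no sequence is shown.

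Each list placed more hotspots per Mb on chromosome 11 than on the other autosomes, but by very different margins. The chromosome was read from its lowest hotspot start at 3023756 to its highest end at 121839646, a span of 118.8 Mb. Brg1 replicates 1 and 2 had 6582 and 12848 hotspots there, CHD4 replicates 1 and 2 had 2691 and 14394, and Snf2h replicates 1 and 2 had 1855 and 4789. Brg1 replicate 1 had 55.4 hotspots per Mb on chromosome 11 and 45.2 on the other autosomes, and Brg1 replicate 2 had 108 and 104. For CHD4 the values were 22.6 on chromosome 11 and 15.5 elsewhere in replicate 1, and 121 and 117 in replicate 2. For Snf2h they were 15.6 and 12.4 in replicate 1, and 40.3 and 31.2 in replicate 2. The ratio was thus 1.04 in the longest list of Brg1 and in that of CHD4, which reach down to a Z score of 2.00, and between 1.22 and 1.46 in the other 4 lists. In those 4 lists chromosome 11 ranked 1st of 19 autosomes. It ranked 5th in Brg1 replicate 2 and 8th in CHD4 replicate 2.

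Requiring both libraries raised the ratio. Chromosome 11 held 3549 Brg1 regions, 29.9 per Mb against 20.2 on the other autosomes, a ratio of 1.48. It held 2175 CHD4 regions, 18.3 per Mb against 11.8 and a ratio of 1.55, and 1324 Snf2h regions, 11.1 per Mb against 7.08 and a ratio of 1.57. The next autosome was chromosome 19 for all 3 remodelers, with 25.3, 15.1 and 9.24 regions per Mb, and chromosome 14 was the lowest with 15.6, 9.03 and 5.03. A hotspot in either library, in place of both, brought the ratios to 1.01 for Brg1, 1.02 for CHD4 and 1.19 for Snf2h. Without Brg1 replicate 1 the Brg1 ratio was 1.03, and without CHD4 replicate 1 the CHD4 ratio was 1.03.

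**Figure D1:**
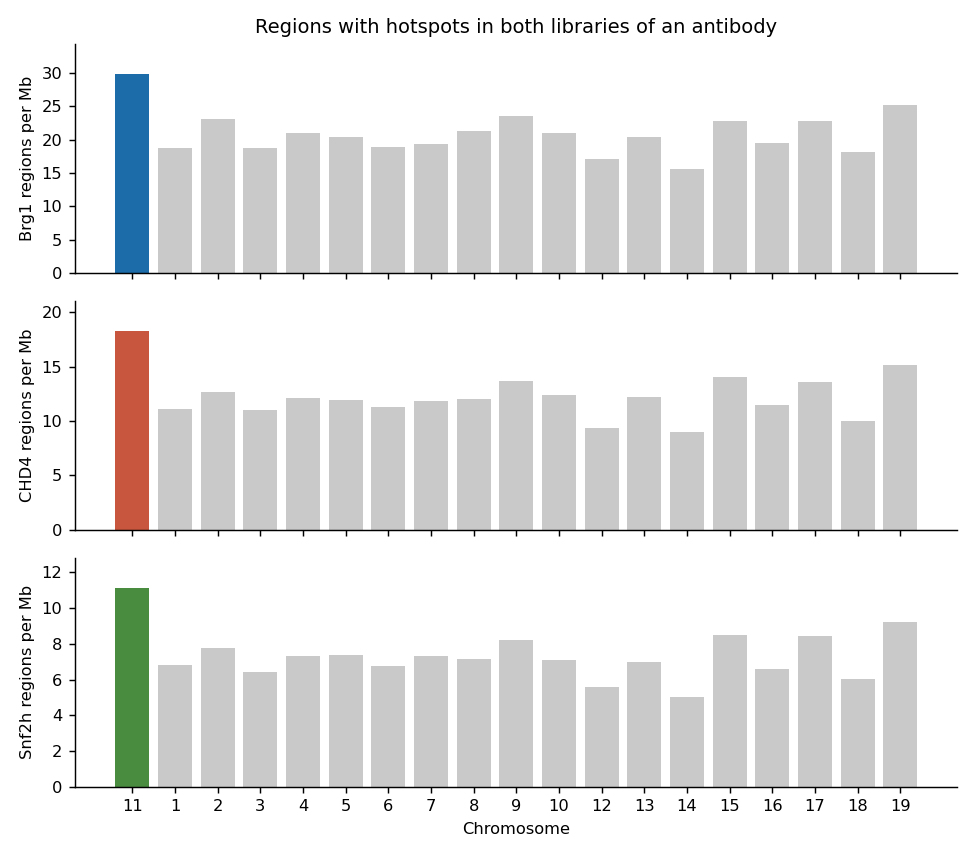
Regions holding a hotspot from both libraries of Brg1 (top), CHD4 (middle) and Snf2h (bottom), per Mb of each autosome; each bar is 1 chromosome and has no error bar, since both libraries enter each count. Chromosome 11, in colour, reached 29.9, 18.3 and 11.1 regions per Mb, and chromosome 19 had the next highest bar in each panel.

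The excess on chromosome 11 lay in regions marked by several libraries. Regions with a hotspot in 1 list were less dense on chromosome 11 than elsewhere, with a density ratio of 0.897, and those with hotspots in 2 lists had a ratio of 0.951. The ratio was 1.30 for 3 lists, 1.51 for 4 lists, 1.66 for 5 lists and 1.61 for the 786 regions with a hotspot in all 6. Counting every merged region, chromosome 11 had 205 per Mb and ranked 14th of 19 autosomes, below the median of 212 for the other 18. A remodeler was assigned to 17.2% of its regions, the highest share of any autosome, against 14.5% on chromosome 19, the next, and a median of 11.5% over the other 18.

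Every class of remodeler combination was denser on chromosome 11 than on any other autosome, and classes of several remodelers more so than classes of 1. Regions of CHD4 with Snf2h had the highest ratio, 1.67, with 163 regions on chromosome 11. Regions of all 3 remodelers followed with a ratio of 1.61 (786 regions), then Brg1 with Snf2h and Brg1 with CHD4, both at 1.58 (159 and 958 regions). For Snf2h alone the ratio was 1.39 (216 regions), for Brg1 alone 1.36 (1646 regions) and for CHD4 alone 1.26 (268 regions). Alone means that no other antibody had hotspots in both of its lists. A hotspot in 1 list of another antibody may be present in such a region. Of the 4196 regions with an assigned remodeler on chromosome 11, 18.7% held all 3 (95% Wilson interval 17.6% to 19.9%), against 17.0% of 55452 on the other autosomes (16.7% to 17.3%). Brg1 alone made up 39.2% on chromosome 11 (37.8% to 40.7%) and 42.1% elsewhere (41.7% to 42.6%), the lowest share of any autosome. These intervals cover counting error only, and neighbouring regions are not independent. The difference in the share of all 3 was 1.75 percentage points. It was 6.27 points without Snf2h replicate 1 and 2.96 without Brg1 replicate 2. It was 0.00190 points when every list was held to a common Z score of 9.49, and -0.159 against chromosome 19 alone.

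The same tilt showed when regions of 1 remodeler were asked for another. Brg1 regions also held CHD4 in 49.1% of cases on chromosome 11 and in 45.5% on the other autosomes, and Snf2h in 26.6% and 24.5%. CHD4 regions also held Brg1 in 80.2% and 77.9%, and Snf2h in 43.6% and 41.7%. Snf2h regions also held Brg1 in 71.4% on chromosome 11 and 69.9% elsewhere, and CHD4 in 71.7% and 69.6%. Each difference was between 1.47 and 3.63 percentage points, with chromosome 11 higher in all 6. These shares count the same regions as the classes above, so they add no separate support. Wilson intervals overlapped for Snf2h regions with Brg1 (68.9% to 73.7% against 69.2% to 70.6%) and with CHD4 (69.2% to 74.0% against 68.8% to 70.3%). They also overlapped for CHD4 regions with Snf2h (41.6% to 45.7% against 41.1% to 42.2%), and not for the other shares.

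Hotspots on chromosome 11 were tall by maximum tag density, a value that was not compared here with the DNA inputs. The DNA content of the chromosomes in this line was not examined. Height was read as the percentile of a hotspot's maximum tag density, the authors' own signal, within its list, so that densities of different lists were not compared. The median percentile was 68.4 on chromosome 11 against 50.2 on the other autosomes in Brg1 replicate 1, and 67.3 against 48.0 in Brg1 replicate 2. It was 63.8 against 50.99 and 64.9 against 49.5 in the CHD4 replicates. In the Snf2h replicates it was 74.997 against 52.3 and 71.1 against 50.1. Chromosome 11 was higher in 6 of 6 libraries, by 18.2 ± 3.64 percentile points (SD, n = 6 libraries), and had the highest median of 19 autosomes in each, tied with chromosome 15 in CHD4 replicate 1. Against chromosome 19 alone the difference was 7.33 points.

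**Figure D2:**
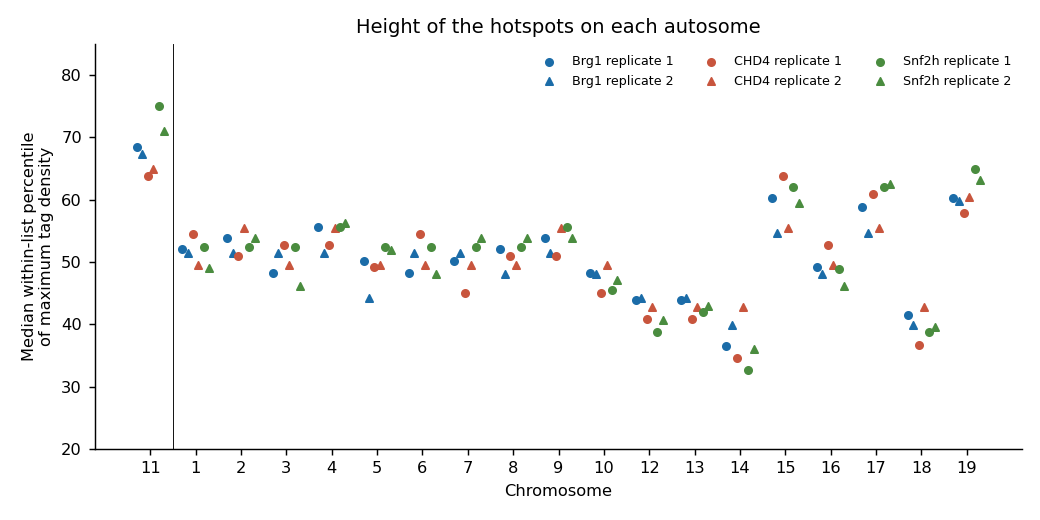
Median within-list percentile of maximum tag density (y axis, percentile) on each autosome (x axis), 1 point per library with circles for replicate 1 and triangles for replicate 2. On chromosome 11 the 6 medians lay between 63.8 and 74.997, the highest of each library, with chromosome 15 level with it in CHD4 replicate 1.

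The density ratio of chromosome 11 was higher among tall hotspots than among low ones. Among the lowest 10% of hotspots in a list it had fewer hotspots per Mb than the other autosomes, with ratios of 0.459 and 0.492 for the Brg1 libraries, 0.541 and 0.770 for CHD4, and 0.308 and 0.445 for Snf2h. Among the highest 10% the Brg1 ratios were 2.15 and 1.78, the CHD4 ratios 2.40 and 1.91, and the Snf2h ratios 2.78 and 2.61. The highest decile exceeded the lowest in 6 of 6 libraries, by 2.21 ± 0.63 on the log2 scale of the ratio (SD, n = 6), and by 0.89 when chromosome 19 stood for the other autosomes. Ratios passed 1 at the fourth decile in CHD4 replicate 1, at the fifth in Brg1 replicate 1, and at the sixth or seventh in the other 4 libraries. The 2 Snf2h libraries had the largest differences, 3.17 and 2.55.

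Ranking by the authors' Z score, whose computation was not given in the sources used here, gave a smaller difference. The Z score ratios ran from 0.930 to 1.29 in the lowest decile and from 1.46 to 1.74 in the highest. The mean log2 difference between them over the 6 libraries was 0.53. The median Z score percentile exceeded that of the other autosomes by 4.32 points on average, unevenly over the lists. It was 49.24 on chromosome 11 against 49.16 elsewhere in CHD4 replicate 2, and 59.3 against 49.6 in Snf2h replicate 2. By median Z score chromosome 11 ranked 11th of 19 autosomes in CHD4 replicate 2 and 4th in Brg1 replicate 2. In the other lists it ranked 1st or 2nd. The tag density at the low end of the lists also moved with the chromosome. The 10th percentile of maximum density was 8.69 on chromosome 11 against 6.37 on the other autosomes in Brg1 replicate 1, and 2.37 against 2.21 in Brg1 replicate 2. In the CHD4 replicates it was 9.71 against 6.59 and 2.47 against 2.22, and in the Snf2h replicates 9.70 against 6.23 and 5.44 against 3.55. The 10th percentile of the Z score differed by less. It was 10.3 against 10.2 and 2.43 against 2.43 for Brg1, 9.43 against 9.33 and 2.30 against 2.33 for CHD4, and 9.09 against 8.95 and 9.15 against 9.03 for Snf2h. Chromosome 11 ranked 1st of 19 autosomes by it in 4 lists, 12th in Brg1 replicate 2 and 17th in CHD4 replicate 2. The part of the density at the low end in the height of these hotspots was not tested.

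**Figure D3:**
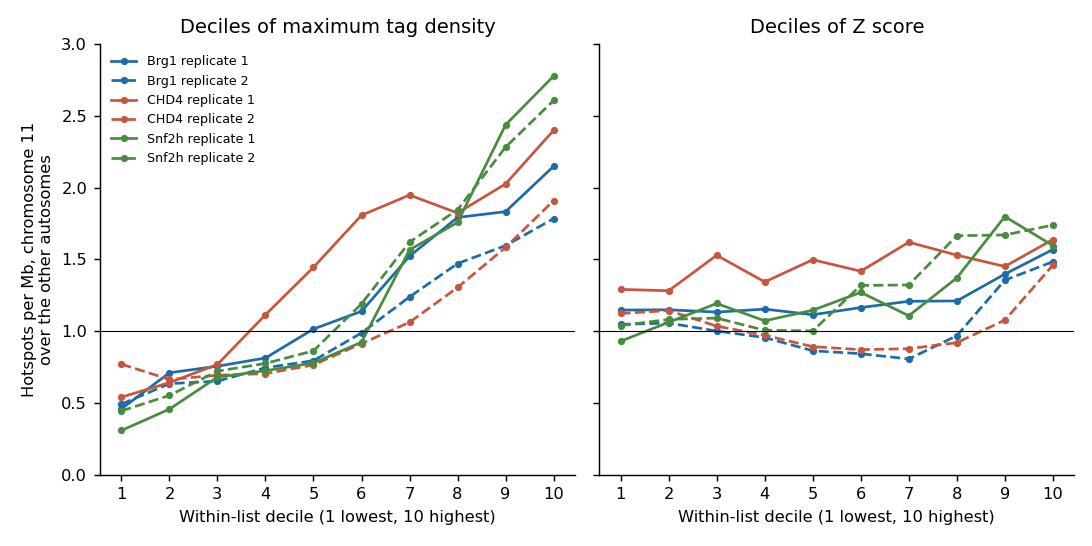
Hotspots per Mb on chromosome 11 divided by those on the other autosomes (y axis), for each within-list decile (x axis) of maximum tag density (left) and of Z score (right), 1 line per library. By density all 6 lines start below 1 and end between 1.78 and 2.78; by Z score they end between 1.46 and 1.74.

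Hotspots on chromosome 11 overlapped other lists more often, and the sign of that difference depended on how heights were weighted. A hotspot of another antibody was overlapped by 60.1% of Brg1 replicate 1 hotspots on chromosome 11 and 49.7% elsewhere, and by 48.3% and 40.5% in Brg1 replicate 2. In the CHD4 replicates the shares were 94.6% against 90.7% and 45.6% against 38.6%, and in the Snf2h replicates 84.5% against 73.8% and 80.5% against 68.9%. Over 6 of 6 libraries the mean difference was 8.56 ± 2.90 percentage points (SD, n = 6). It was 3.99 points with lists of equal length and 2.92 points in the taller 50% of each list. With each height decile given equal weight it was -2.59 points, that is, lower on chromosome 11. Overlap between the libraries of 1 antibody was higher on chromosome 11 by 8.39 ± 4.37 points, and -2.67 points with equal weight to the deciles. Median widths followed the same course. They exceeded those elsewhere by 18 to 59 bp in the full lists, with 510 bp against 488 bp in CHD4 replicate 1 and 500 bp against 441 bp in Snf2h replicate 2, and were 7.33 bp narrower on average in the taller 50% of each list.

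Along chromosome 11 the regions were uneven. The coefficient of variation over 1-Mb bins was 62.4% for Brg1 regions on chromosome 11 and 74.5% over the pooled bins of the other 18 autosomes. It was 70.0% and 85.9% for CHD4 regions, and 68.7% and 84.2% for Snf2h regions. By hotspot number it was lower on chromosome 11 in 4 lists and 46.6% against 45.8% and 43.8% against 42.6% in the Snf2h lists. The pooled values also hold differences between chromosomes, and the coefficient is relative to a mean that was higher on chromosome 11. Whether chromosome 11 was more even than any single autosome was therefore not shown. Between 3 and 10 Mb there were 37.6 Brg1, 24.5 CHD4 and 13.5 Snf2h regions per Mb. Between 10 and 50 Mb there were 16.1, 9.23 and 5.45, and from 50 Mb to the end 36.8, 22.8 and 14.1. The stretch from 10 to 50 Mb was therefore below the mean of the other autosomes, at 0.793, 0.780 and 0.769 of it, while the distal stretch stood at 1.82, 1.92 and 1.99. These limits were chosen after the values were seen. All merged regions together showed no such step, with 197, 203 and 207 per Mb in the 3 stretches.

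Height changed between the stretches in every library. From 10 to 50 Mb the median percentile lay between 40.7 and 45.5, and from 50 Mb to the end between 67.7 and 79.0. In the distal stretch hotspots of the highest decile were 2.32 to 3.89 times as dense as on the other autosomes, and those of the lowest decile 0.0425 to 0.502 times. Snf2h replicate 1 was the extreme, with 343 hotspots of its highest decile and 3 of its lowest. From 10 to 50 Mb the highest decile was at 0.611 to 0.893 times the density of the other autosomes.

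**Figure D4:**
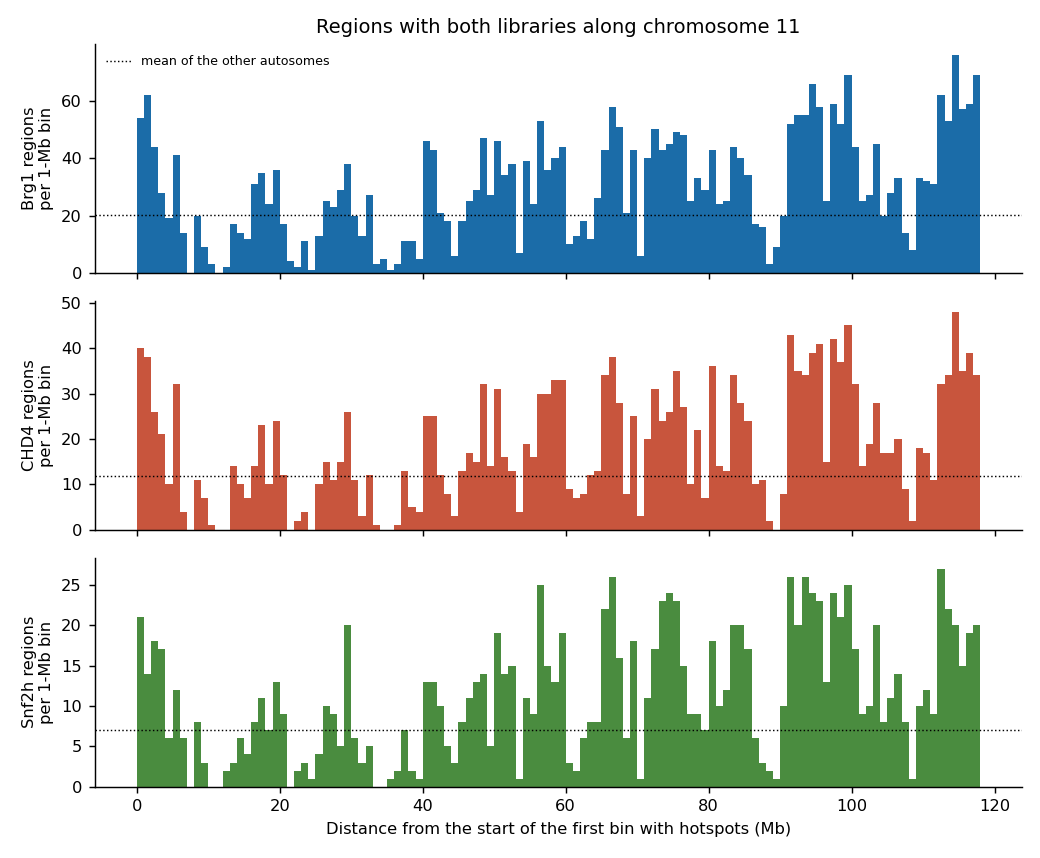
Regions with hotspots in both libraries of Brg1 (top), CHD4 (middle) and Snf2h (bottom) in each of 118 full 1-Mb bins (y axis, regions per bin; x axis, distance in Mb from the start of the first bin with hotspots); the dotted line is the mean density of the other autosomes. Bins range from 0 to 76 Brg1 regions, 0 to 48 CHD4 regions and 0 to 27 Snf2h regions, with the fullest in the distal part.

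In 1-Mb bins the medians were 27.5 Brg1, 15 CHD4 and 10 Snf2h regions on chromosome 11, against 18, 10 and 6 on the other autosomes. More Brg1 regions than the 90th percentile of all autosomal bins were found in 31 of 118 bins (26.3%), where 9.27% of the 2406 autosomal bins passed. For CHD4 it was 33 bins (28.0%) where 9.31% passed, and for Snf2h 33 bins (28.0%) where 9.35% passed. Density chose the chromosome, so these counts add no support. Single lists differed. By hotspot number, 27 bins of Brg1 replicate 1 passed (22.9%), where 9.73% of all bins did, and 27 bins of Snf2h replicate 1 (22.9%), where 8.06% did. CHD4 replicate 1 passed in 33 bins (28.0%), where 9.27% did, and Snf2h replicate 2 in 35 bins (29.7%), where 10% did. Brg1 replicate 2 passed its own 90th percentile in 1 bin of chromosome 11 (0.847%), where 9.68% of all bins passed, and CHD4 replicate 2 in 10 bins (8.47%), where 9.98% passed. The 12 fullest bins held 21.3% of its Brg1 regions, 22.6% of its CHD4 regions and 22.6% of its Snf2h regions. The 12 emptiest held 0.769%, 0.233% and 0.457%.

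The 5 densest bins, ranked by the mean over 6 lists of the bin's hotspot count relative to the mean bin, all lay beyond 97 Mb. They began at 117000001, 98000001, 97000001, 102000001 and 115000001, with means of 1.67 to 1.72. The bin from 117000001 to 118000000 had 102 and 146 Brg1 hotspots, 53 and 157 CHD4 hotspots and 23 and 80 Snf2h hotspots in the lists of replicates 1 and 2. It held 76 Brg1 regions and 48 CHD4 regions, the most of any bin of the chromosome. Snf2h peaked elsewhere, with 27 regions from 115000001 to 116000000, where its libraries had 34 and 79 hotspots. Each of the 5 bins held between 12 and 17 regions of all 3 remodelers.

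The 5 sparsest bins began at 10000001, 15000001, 13000001, 27000001 and 14000001, all within the low proximal stretch, with means of 0.362 to 0.482. From 10000001 to 11000000 there were 29 and 23 Brg1 hotspots, 2 and 46 CHD4 hotspots and 5 and 26 Snf2h hotspots, and no region of any remodeler. None of these 5 bins held a region of all 3. Hotspots were present there but low, with a mean over libraries of the median percentile between 8.65 and 13.4, against 82.0 to 89.98 in the 5 densest bins. Count and height moved together over all 118 bins, with Spearman's rho between 0.629 and 0.920 over the 6 libraries, a description in which the bins share a library. The 10th percentile of maximum density moved likewise, from 4.16 to 21.5 across the bins of Snf2h replicate 1, and its part in the relation was not tested.

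Bins where 1 remodeler exceeded the others were about as frequent on chromosome 11 as over all autosomes. Both Brg1 libraries exceeded the other 4 in count relative to the mean bin in 9 of 118 bins (7.63%), where 6.67% of 2339 autosomal bins did. Both Snf2h libraries did so in 9 bins (7.63%), where 6.24% did, and both CHD4 libraries in 2 bins (1.69%), where 2.27% did. These shares are near the background, so the bins that follow are given as values only. The margin of Snf2h was widest from 32000001 to 33000000, where its libraries had 26 and 64 hotspots, 1.67 and 1.59 times their mean bin, and the others between 1.07 and 1.33 times. The next was from 115000001 to 116000000, at 2.18 and 1.97 times against 1.21 to 1.73. For Brg1 the margin was widest from 52000001 to 53000000, at 1.16 and 1.12 times against 0.578 to 0.974, and from 34000001 to 35000000, at 1.05 and 0.934 against 0.222 to 0.817. The CHD4 bins, from 20000001 to 21000000 and from 12000001 to 13000000, exceeded the others by 0.0336 and 0.0317 of a mean bin.

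In the full lists, libraries of 1 antibody were on average about as alike in profile as libraries of different antibodies. These lists reach down to different Z scores, 9.49 and 2.00 for Brg1, and 8.77 and 2.00 for CHD4. With 15 pairings the smallest possible p is 0.0667, so the test cannot decide whether the antibodies differ in profile. Over 118 bins Spearman's rho was 0.918 between the Snf2h libraries, 0.735 between the Brg1 libraries and 0.651 between the CHD4 libraries. The highest rho of all, 0.926, was between CHD4 replicate 1 and Snf2h replicate 2. Same-antibody pairs averaged 0.768 and other pairs 0.761, a difference of 0.00661 (exact permutation p = 0.467 over the 15 pairings, one-sided). Without Brg1 replicate 2, Snf2h replicate 1 or Snf2h replicate 2 the difference was below 0. With lists of equal length (32310 tallest hotspots each), and at the common Z score, it was 0.0117 and 0.0250, the highest of the 15 pairings each time (exact permutation p = 0.0667, the smallest possible). On the other autosomes the same pairs gave 0.728 for Snf2h, 0.767 for Brg1 and 0.655 for CHD4.

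The longest run with no hotspot of any list spanned 132 kb, from 60377407 to 60509598, followed by 81.6 kb from 27740302 to 27821937 and 76.8 kb from 83141386 to 83218164. On the other autosomes the longest such run had a median of 458 kb and a minimum of 93.5 kb. The median gap between neighbouring Brg1 regions was 12904 bp, against 15016 to 20929 bp on the other autosomes, and between Snf2h regions it was 38746 bp, against 43685 to 73937 bp. For CHD4 regions it was 18412 bp, against 20886 to 34032 bp. The longest gap was 1630 kb for Brg1, 3373 kb for CHD4 and 2753 kb for Snf2h, against medians of 1813, 3084 and 3121 kb for the longest gaps of the other autosomes.

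At the 786 regions with a hotspot in all 6 lists, Snf2h hotspots stood highest in rank. Maximum density was ranked over the regions of this kind in the whole series, separately in each library. The median region of chromosome 11 stood at percentiles 65.1 and 64.9 for Snf2h, 60.9 and 59.3 for CHD4 and 58.4 and 54.3 for Brg1, against 49.8 to 50.7 on the other autosomes. Both Snf2h libraries gave the highest percentiles at 208 of the regions on chromosome 11 (26.5%, Wilson interval 23.5% to 29.7%) and at 21.4% of 9415 elsewhere (20.6% to 22.2%). Both Brg1 libraries did so at 107 (13.6%, 11.4% to 16.2%), against 17.2% elsewhere (16.4% to 17.9%), and both CHD4 libraries at 42 (5.34%), against 6.01%. Within chromosome 11 rho between heights was 0.763 for the Brg1 libraries, 0.716 for CHD4 and 0.675 for Snf2h. Brg1 replicate 2 with Snf2h replicate 2 gave -0.107, against -0.0579 elsewhere.

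The tallest regions of all 3 remodelers lay close to the proximal end of the assembled sequence. How this stretch stands in the DNA inputs was not examined. The region from 3059416 to 3060243 had maximum densities of 208 and 114 for Brg1, 155 and 112 for CHD4, with 119.8 and 118 for Snf2h. Its lowest percentile in any list was 99.8. Those from 3064327 to 3066133 and from 3092728 to 3093998 came next, and the second of these had the tallest Snf2h replicate 2 hotspot of the chromosome, 271. The same stretch also held the tallest regions of Brg1 with CHD4 (3060909 to 3061850 and 3057885 to 3058972), of CHD4 alone (3085581 to 3086381 and 3053745 to 3054521) and of Brg1 alone (3046886 to 3048020). At these, hotspots of further lists were often present: the last had densities of 152 and 94.3 in the Brg1 libraries, 85.2 in CHD4 replicate 2 and 56.5 in Snf2h replicate 2. That CHD4 replicate 2 hotspot stood at percentile 99.99 of its list. In the CHD4 regions from 3053745 and from 3085581, Brg1 replicate 2 had hotspots of 136 and 39.5, at percentiles 99.96 and 97.6. Both are CHD4 alone only because Brg1 replicate 1 had no hotspot there. Leaving out the whole bin from 3 to 4 Mb changed the density ratios to 1.46, 1.53 and 1.56 and the height difference to 18.1 points.

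Away from that end, 2 regions of all 3 remodelers were among the tallest. The region from 79037791 to 79038799 reached 332 and 127 for Brg1, 73.2 and 41.8 for CHD4, with 46.4 and 80.1 for Snf2h. The region from 95020695 to 95022588 reached 233 and 77.5 for Brg1, 72.8 and 30.6 for CHD4, with 44.3 and 101 for Snf2h. Brg1 with Snf2h was tallest from 96722532 to 96723762, with 133 and 47.6 for Brg1 and 38.1 and 62.4 for Snf2h. CHD4 replicate 2 had a hotspot of 18.5 there and CHD4 replicate 1 had none. CHD4 with Snf2h was tallest from 48668579 to 48670981, with 58.9 and 44.0 for CHD4 and 70.0 and 86.3 for Snf2h, beside 12.7 in Brg1 replicate 2. Snf2h alone was tallest from 60013010 to 60013782, at 42.9 and 48.7, with 20.8 in Brg1 replicate 1. The second Brg1 region, from 68915566 to 68916405, reached 175 and 60.4. The second regions of Brg1 with Snf2h, CHD4 with Snf2h and Snf2h alone began at 77977200, 51352906 and 74794819.

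Gene density was alike on chromosomes 11 and 7, while chromosome 7 had fewer remodeler regions. The RefSeq table lists 1609 coding genes on chromosome 11, 13.5 per Mb, and 13.6 per Mb on chromosome 7, the highest of the autosomes. Chromosome 11 had 29.9 Brg1, 18.3 CHD4 and 11.1 Snf2h regions per Mb, against 19.3, 11.9 and 7.34 on chromosome 7. The span of chromosome 7, used for both of its densities, includes a run of 7085050 bp with no hotspot of any list. Symbols of olfactory and vomeronasal receptors, gene families of the sensory epithelia, made up 83 of the coding genes on chromosome 11 and 417 on chromosome 7. Without them, a step chosen after the values were seen, chromosome 11 had the most coding genes of the 19 autosomes, 12.8 per Mb, followed by chromosome 19 with 11.02 and chromosome 7 with 10.8. Over 19 autosomes the density of all coding genes correlated with region density, as a description, at Spearman's rho 0.782 (Brg1), 0.756 (CHD4) and 0.851 (Snf2h). A line through the other 18 autosomes left chromosome 11 at 1.248, 1.28 and 1.26 times its value. Gene density without receptors and region density correlated at Spearman's rho 0.796 (Brg1), 0.770 (CHD4) and 0.870 (Snf2h). The line through the other 18 autosomes then gave 25.6 Brg1, 15.4 CHD4 and 9.61 Snf2h regions per Mb at the gene density of chromosome 11. That gene density is above those of all 18, so the line was extended beyond its points. The values of chromosome 11 were 1.17, 1.19 and 1.16 times that line. Distances of the other autosomes from it are not given. Gene counts and region spans come from different builds.

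**Figure D5:**
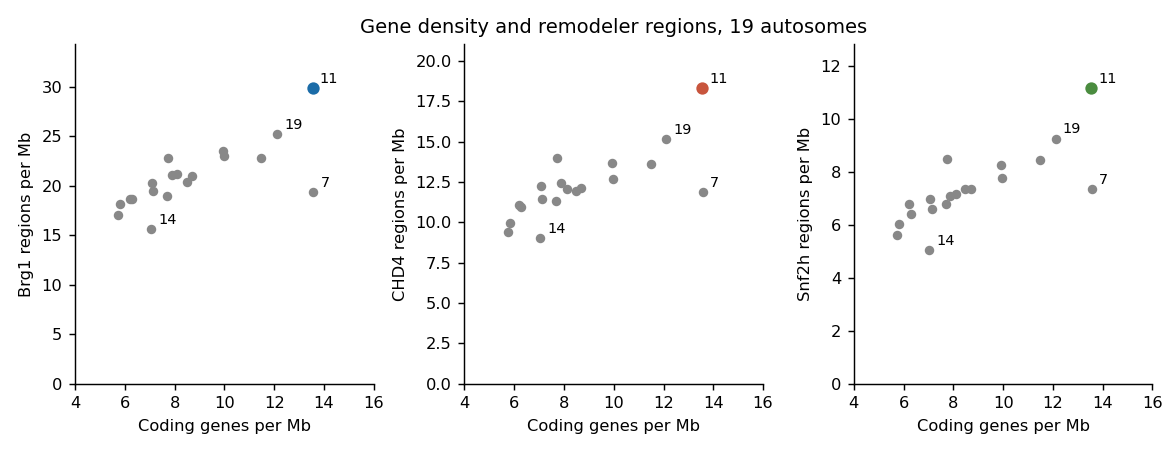
Regions with both libraries per Mb (y axis) against coding genes per Mb in the RefSeq table (x axis) for Brg1, CHD4 and Snf2h; each point is 1 of 19 autosomes, with chromosome 11 in colour and chromosomes 7, 14 and 19 named. Chromosomes 11 and 7 have 13.5 and 13.6 genes per Mb and 29.9 and 19.3 Brg1 regions per Mb.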

How the data were processed

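The authors called hotspots in each library and deposited 1 list per library. CASAVA 1.6 and build mm9 are named in the submitters' processing notes, with no role. Which caller and thresholds were used, how the DNA inputs entered and how deep the sequencing went was not given in the sources used here. Each hotspot carries the authors' own signal (maximum and average tag density, scaling unstated), Z score and p-value, per the file headers. The deposited p-value was not used. Densities were used only to rank hotspots within a list, except where densities of 1 list are set side by side. Ties were averaged in percentiles. In the density deciles and the subsets of tallest hotspots they were ordered by average density. Densities given for a named region belong each to its own list and are not comparable between lists.

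Intervals were read as closed and 1-based and handled with pandas 2.3.3, numpy 2.4.6 and scipy 1.17.1 under Python 3.11.15. Figures came from matplotlib 3.10.9. Hotspots of all 6 lists were merged at an overlap of at least 1 bp. Bins of 1 Mb were filled by hotspot midpoint. Libraries were grouped by title. Named bins and regions follow fixed rules: the 5 densest and 5 sparsest bins, the 2 bins per antibody where it stands out, the tallest 5 regions of all 3 remodelers and the tallest 2 of other classes, and the 3 longest runs without a hotspot. Chromosome, classes and rules were chosen with earlier results of these data known. Sign-flip tests over libraries had been planned for height, width, overlap and the height deciles and were not made, because these values share the contrast that chose the chromosome. A planned test of the antibodies' density ratios is not reported for the same reason. An exact permutation test compared the profiles of libraries along chromosome 11. P-values cover the spread between these libraries, which may be technical. The functions were tested on simulated data. Wilson intervals are at 95%. Alternatives were lists of 32310 or of the taller 50%, 1 library left out at a time, an overlap of 50%, another reference chromosome, other rankings and other bins. A common Z score and the 4 lists of high threshold were added after seeing the data.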

Additional observations from a re-analysis of the deposited data

How the results depend on the processing

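Of 136 recalculations, 8 changed sign, 30 kept their sign but moved beyond a limit, and 98 did neither. The limit was the SD over libraries, or 50% of the width of the Wilson interval for the share of all 3 remodelers. For the density ratios it was the SD of the antibody's own 2 libraries, 0.133 for Brg1, 0.300 for CHD4 and 0.0266 for Snf2h. A change of the same size could therefore pass the limit for Snf2h and not for CHD4. Recalculations of the profile test and of the unreported test of density ratios had no such limit. They were held to a change of sign or to a significance threshold that no p could reach. Without a change of sign they therefore fell among the 98 in any case. Leaving out 1 library at a time gave density ratios of 1.03 to 1.49 for Brg1, 1.03 to 1.55 for CHD4 and 1.24 to 1.58 for Snf2h; the low ends lacked Brg1 replicate 1, CHD4 replicate 1 and Snf2h replicate 2, so that a single list stood for its antibody. The share of all 3 remodelers then differed by 1.97 to 6.27 points, the highest without Snf2h replicate 1, and the profile difference ran from -0.0801 to 0.103 (exact permutation p from 0.2 to 0.867). Lists of equal length gave ratios of 1.89 for Brg1 and 1.83 for Snf2h, a width difference of -11.2 bp and an overlap difference with other antibodies of 3.99 points. The taller 50% of each list gave ratios of 1.72, 1.97 and 1.94 for Brg1, CHD4 and Snf2h, a width difference of -7.33 bp and overlap differences of 2.92 points with other antibodies and 3.30 with the same antibody. A site in either library gave 1.01, 1.02 and 1.19. Chromosome 19 as the only comparison gave ratios of 1.18, 1.21 and 1.21, -0.159 points for all 3 remodelers, 7.33 percentile points of height, 12.6 bp of width, 2.65 and 2.57 points of overlap, and 0.89 for the deciles. The common Z score gave 1.602 for Snf2h and 0.00190 points for all 3 remodelers. Z score in place of density gave 4.32 points of height and 0.53 for the deciles, and equal weight to height deciles turned the overlap differences to -2.59 and -2.67 points. The cause of these changes was not tested.

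Replicate numbers were not used to pair libraries: deviations of same-numbered libraries over bins correlated at 0.322, 0.0574 and 0.273 between antibodies. With the replicate block the profile difference was 0.0282 (exact permutation p = 0.333), where 0.167 is the smallest p. Depth is unknown, so low hotspots on sparse stretches cannot be weighed against it.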
